A study of Bos taurus with 6 samples.

Results

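The miRNAs described here are the 76 mature miRNAs listed in the liver libraries whose number is at least 3000 and below 10000, with any letter or arm suffix and without bta-miR-4449, out of 1030 listed mature miRNAs. The rule uses the names alone and no measured value. Small RNA was sequenced from the livers of 6 Wye Angus steers of a closed herd, with 3 libraries from the grass-fed group and 3 from the grain-fed group, 1 library per animal. The grass-fed steers received mainly alfalfa, hay or pasture grass and were 21 months old. The grain-fed steers received mainly corn silage, shelled corn, soybean and minerals and were 14 months old. Diet, age and sequencing depth separated the groups in the same way and cannot be told apart, and each group is a single management system of 3 animals at market weight.

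miRNAs are short RNAs cut from a hairpin precursor by the enzymes Drosha and Dicer, and 1 strand of the resulting duplex, from the 5p or the 3p arm of the hairpin, is usually kept in an Argonaute protein and guides it to matching mRNAs. Many precursors lie inside the transcripts of other genes, called host genes. Numbers in miRNA names are given in the order of discovery, so the well known liver and housekeeping miRNAs carry low numbers, and the miRNAs of this number range were mostly added after deep sequencing of small RNA had begun. They are grouped here by number, not by sequence or function.

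The libraries differed in depth and in the levels of hepatocyte and pancreas miRNAs. The miRNA counts per library ranged from 3824592 to 6133960 in the grass-fed and from 464875 to 892929 in the grain-fed group. Levels are CPM, the counts scaled to a common library size by the TMM method of edgeR. With 3 counts as the limit that a count of 0 allows, a miRNA without counts could stand at up to 0.632 to 0.787 CPM in grass-fed and at up to 2.92 to 5.32 CPM in grain-fed libraries, counting error only. The hepatocyte miRNAs bta-miR-122, bta-miR-192 and bta-miR-194 together reached 364031 to 545892 CPM in grass-fed and 191672 to 253900 CPM in grain-fed libraries, without overlap. Of these, bta-miR-122 (log2 fold change 1.12, FDR = 0.0042, edgeR) and bta-miR-192 (log2 fold change 0.65, FDR = 0.029, edgeR) were higher in grass-fed liver, and bta-miR-194 did not pass (log2 fold change -0.43, FDR = 0.300, edgeR). The part of this difference in the diet comparisons was not tested. The pancreas miRNAs bta-miR-216a, bta-miR-216b and bta-miR-217 were summed likewise. Their sum was 28.2 CPM for grain-fed replicate 1, 58.1 CPM for replicate 2 and 0 for replicate 3, and at most 1.31 CPM in the grass-fed libraries. In whole liver, fewer cells of a type and less RNA per cell cannot be told apart. Summed levels ranged from 312 to 522 CPM in grass-fed and 197 to 353 CPM in grain-fed libraries for 3 skeletal muscle miRNAs, and from 419 to 643 and 465 to 665 CPM for 3 erythroid miRNAs.

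Most of these miRNAs were scarce in liver or had no count. Of the 76, 47 had a count in any library and 25 passed the limit for being called detected, more than 2 counts in 2 or more libraries. A further 22 had some counts without reaching that limit, with at most 4 counts in a library and at most 8 over all libraries, and 6 of them had 1 count in all. The remaining 29 had no count in any library. Only 10 had more than 2 counts in all 6 libraries, namely bta-miR-3431, bta-miR-3432a, bta-miR-3432b, bta-miR-3533, bta-miR-3613a, bta-miR-6119-5p, bta-miR-6120-3p, bta-miR-6517, bta-miR-6524 and bta-miR-6529a. No detected miRNA had the same counts as another listed miRNA in every library.

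The share detected was 32.9%, beside 44.3% of all 1030 listed miRNAs. It was 72.1% for let-7 and numbers below 1000, 38.8% for numbers from 1000 to below 2000, 28.3% for numbers from 2000 to below 3000 and 25.6% for 10000 or above. The median level of the detected miRNAs, from the mean of both groups, was 3.73 CPM in this range and 59.3 CPM for the numbers below 1000. The class from 2000 to below 3000 had a median of 3.85 CPM and that of 10000 or above 7.21 CPM. Both measures lay below those of the lowest numbers, without a test of the difference. The highest miRNA of the range, at 160 CPM, ranked 111 among the 456 detected miRNAs.

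**Figure D1:**
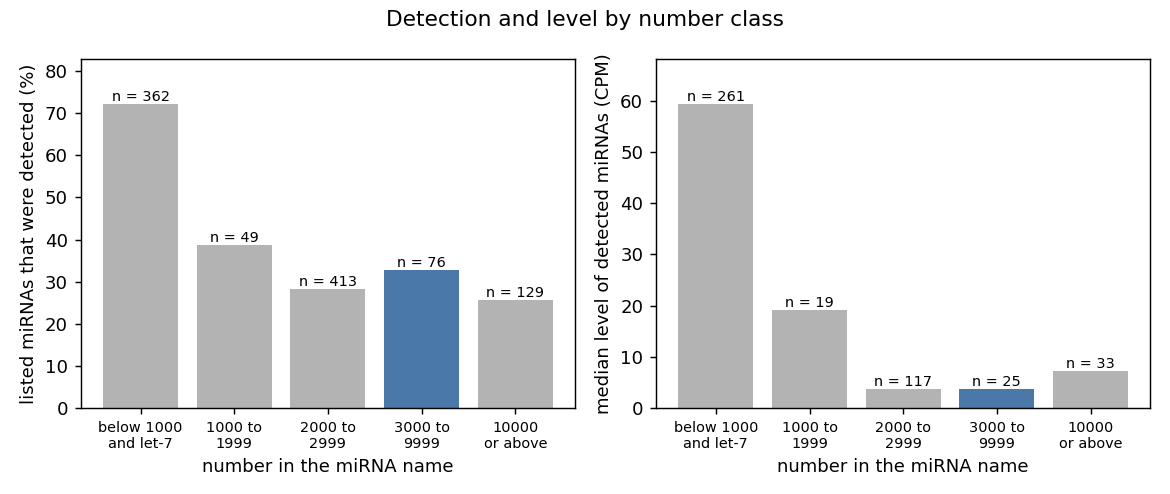
Percent of listed miRNAs that were detected (left) and median CPM of the detected miRNAs (right) for 5 classes of the number in the miRNA name, with n listed and n detected above the bars. The class described here, in blue, stands at 32.9% and 3.73 CPM, against 72.1% and 59.3 CPM for numbers below 1000.

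More of these miRNAs were seen in the deeper grass-fed libraries, but not at equal depth. The number with more than 2 counts was 26, 25 and 21 for grass-fed replicates 1, 2 and 3 against 13, 12 and 11 for the grain-fed ones, and the groups did not overlap. Over all listed miRNAs the like numbers were 456, 453 and 440 against 346, 328 and 309, also without overlap. Of the 25 detected miRNAs, 20 passed 2 counts in all 3 grass-fed libraries and 12 in no grain-fed library. The shares over all detected miRNAs were not computed for these. Each library was also brought down to the 464875 counts of the smallest, by the expectation of the hypergeometric distribution. The number in this range was 9.93, 8.97 and 9.78 in grass-fed replicates 1, 2 and 3 against 10.6, 11.5 and 11.0 in the grain-fed ones. The order of the groups was then turned. The same held over all listed miRNAs, with 265 to 283 above 2 counts in grass-fed and 304 to 309 in grain-fed libraries at that depth.

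**Figure D2:**
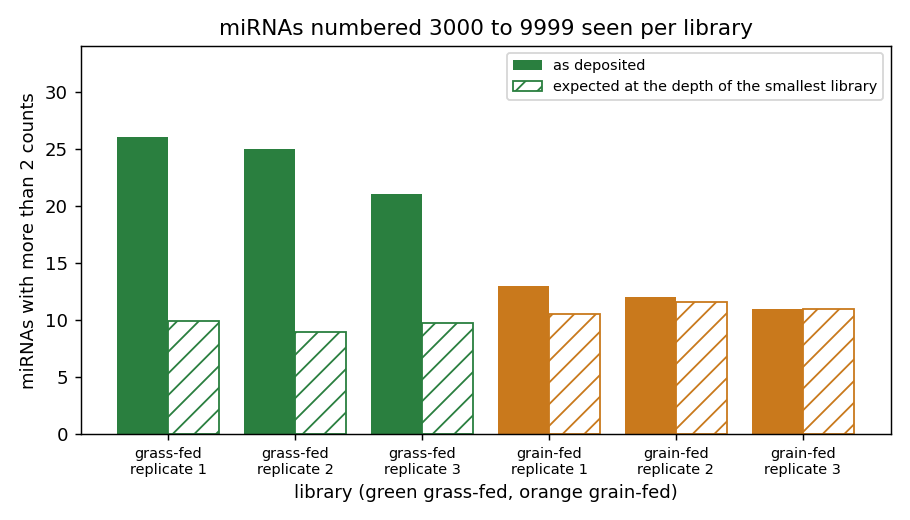
Number of the 76 miRNAs with more than 2 counts in each of the 6 libraries, as deposited (filled) and by expectation at the depth of the smallest library (hatched). The filled bars stand at 21 to 26 in grass-fed and 11 to 13 in grain-fed libraries, and the hatched bars at 8.97 to 9.93 and 10.6 to 11.5.

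Together the 76 miRNAs took a very small part of the miRNA counts. They held 2016, 2374 and 1680 counts in grass-fed replicates 1, 2 and 3 against 492, 303 and 285 counts in the grain-fed ones. As a share of each library this was 0.0408% ± 0.00277 (SD, n = 3) in grass-fed and 0.0547% ± 0.00680 (SD, n = 3) in grain-fed liver, and the libraries of the groups did not overlap. On the TMM scale the same sums were 475 ± 73.6 CPM and 471 ± 38.9 CPM (SD, n = 3 each) and overlapped, so the difference in share depends on how the libraries are scaled. bta-miR-3432a and bta-miR-3431 made up 66.0% ± 3.89 of these counts in grass-fed and 63.8% ± 3.05 in grain-fed libraries (SD, n = 3 each). Without them the sum was 160 ± 9.10 and 170 ± 0.416 CPM (SD, n = 3 each), with libraries from 150 to 168 CPM in grass-fed and from 169 to 170 CPM in grain-fed liver. Of the 25 detected miRNAs, 2 were at 100 CPM or more, 5 between 10 and 100 CPM and 18 below 10 CPM.

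**Figure D3:**
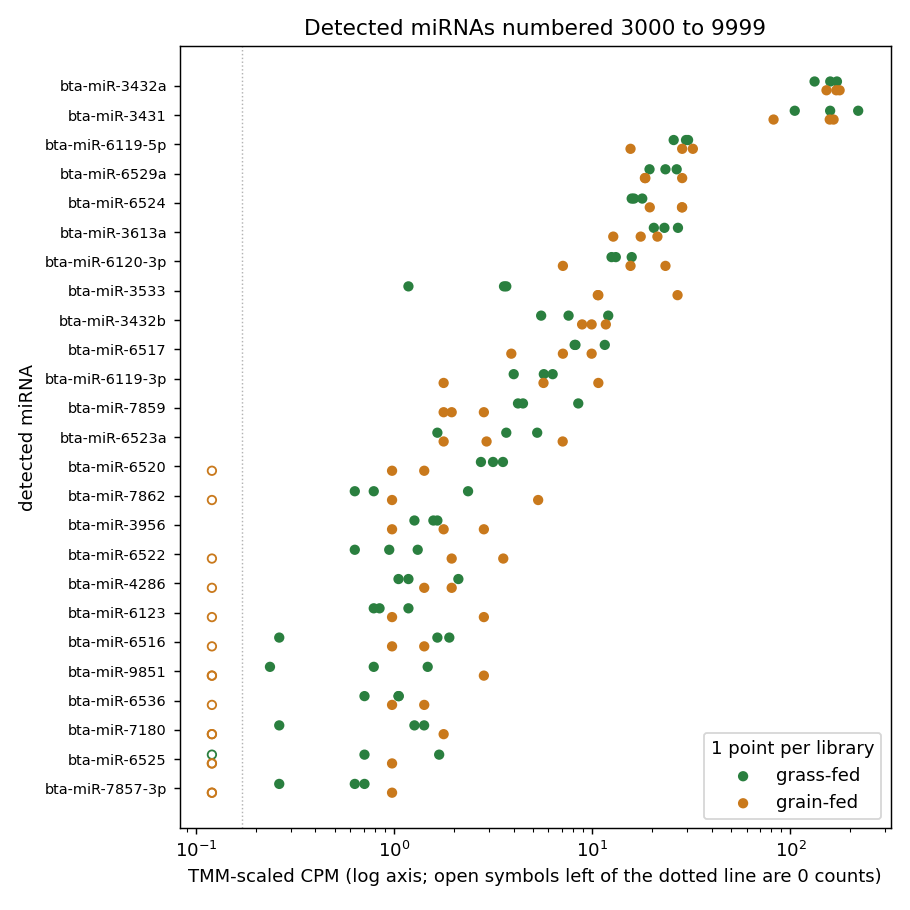
TMM-scaled CPM of the 25 detected miRNAs on a log axis, with 1 point for each of the 3 grass-fed (green) and 3 grain-fed (orange) libraries, and open points at the left for libraries with 0 counts. bta-miR-3432a and bta-miR-3431 lie between 82.1 and 220 CPM, and the groups are separate for bta-miR-3533, bta-miR-6524, bta-miR-7859 and bta-miR-6520 alone.

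In the comparison of diets by the edgeR quasi-likelihood test, 1 of the 25 detected miRNAs passed FDR 0.1, and it was lower in grass-fed liver. Over all 456 tested miRNAs 19.1% passed in either direction, 9.65% lower and 9.43% higher in grass-fed liver, and the share among the 25 was 4.0%. An unadjusted p below 0.05 was reached by 2 of them, bta-miR-3533 and bta-miR-6520, beside 25.2% of all tested miRNAs. The grass-fed and grain-fed CPM ranges were separate for 4, namely bta-miR-3533, bta-miR-6524, bta-miR-6520 and bta-miR-7859, beside 32.9% of all tested miRNAs. The fitted value was higher in grass-fed liver for 13 and lower for 12, with a median log2 fold change of 0.10 beside 0.13 over all tested miRNAs. With total counts as the only scaling these medians were -0.31 and -0.29, and with upper-quartile normalization 0.27 and 0.31. The median standard error was 0.69 on the log2 scale beside 0.43 over all tested miRNAs, and 16 of the 25 had at least 0.5. Other high numbers had a like median standard error, 0.66 from 2000 to below 3000 and 0.69 for 10000 or above. The median was 0.49 from 1000 to below 2000 and 0.31 for let-7 and numbers below 1000.

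**Figure D4:**
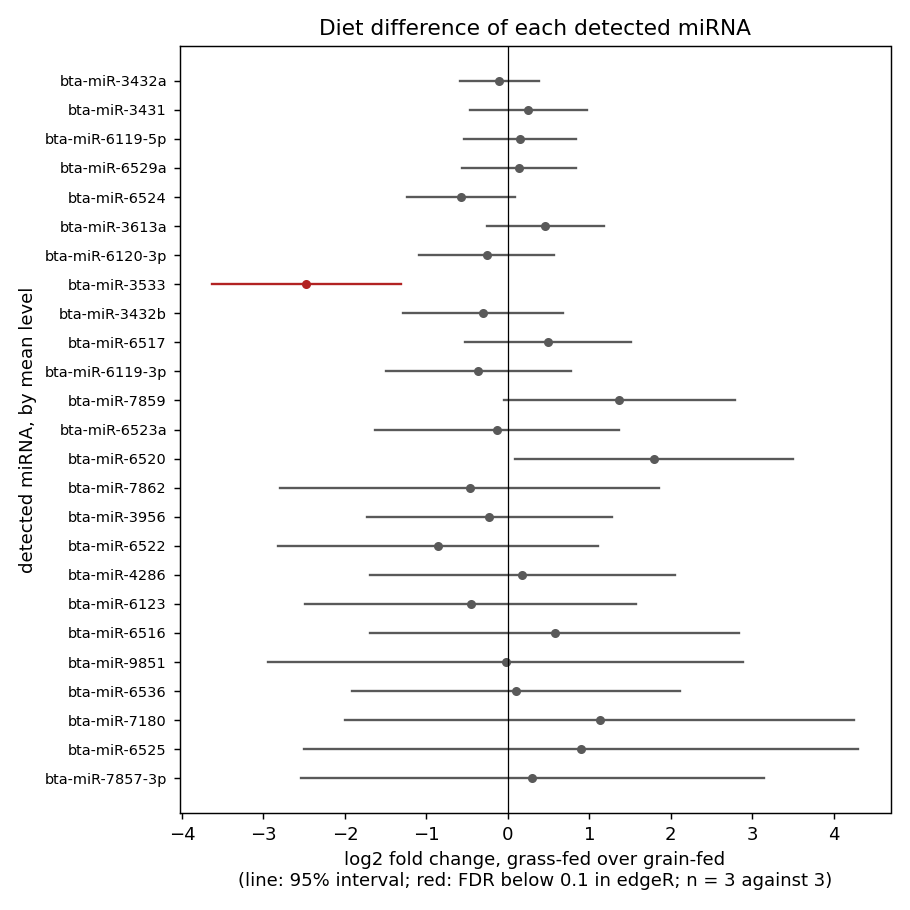
Log2 fold change (grass-fed over grain-fed, 3 libraries each) of the 25 detected miRNAs with 95% intervals from the edgeR fit, ordered by mean level from the top. Only bta-miR-3533, in red, passed FDR 0.1, and the intervals widen toward the scarce miRNAs at the bottom.

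bta-miR-3533 was the miRNA that passed the test. In RefSeq's annotation its precursor overlaps ACTG1, the gene of cytoplasmic gamma actin. It had 17, 5 and 14 counts in grass-fed replicates 1, 2 and 3 against 11, 19 and 6 counts in the grain-fed ones, which scaled to 3.58, 1.18 and 3.67 CPM and to 10.7, 26.9 and 10.6 CPM. Every grain-fed library was thus above every grass-fed library, and grain-fed replicate 2 was the highest. The group levels were 2.81 ± 1.41 and 16.1 ± 9.37 CPM (SD, n = 3 each), which gave -2.47 on the log2 scale (standard error 0.53, 95% interval -3.63 to -1.31, FDR = 0.00730, edgeR). Without grain-fed replicate 2 the value was -1.99 (FDR = 0.105, edgeR), so the call was lost without that library. The pancreas miRNAs stood in 2 of the 3 grain-fed libraries, and their sum was highest in the same replicate 2. bta-miR-216b and bta-miR-217 were also highest there, while bta-miR-216a was at 4.87 CPM in replicate 1 and 4.25 CPM in replicate 2. In grain-fed replicate 3 all 3 pancreas miRNAs were at 0, and bta-miR-3533 was at 10.6 CPM from 6 counts. The part of pancreas RNA in the difference between the diets was not tested.

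bta-miR-6524, which the study lists as changed, came closest among the better counted miRNAs but did not pass here. Its precursor overlaps PDCD4, which encodes an inhibitor of translation, and so does that of bta-miR-4680, which was not detected and had 4 counts over all libraries. bta-miR-6524 had 77, 67 and 68 counts in grass-fed replicates 1, 2 and 3 against 20, 20 and 16 in the grain-fed ones, or 16.2, 15.8 and 17.8 CPM against 19.5, 28.3 and 28.4 CPM. The ranges were separate, with grain-fed replicate 1 near the grass-fed libraries. The log2 fold change was -0.57 (standard error 0.30, 95% interval -1.24 to 0.09) and did not pass FDR 0.1 (FDR = 0.253, edgeR), nor under any alternative, where FDR in edgeR or DESeq2 was 0.105 or more.

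bta-miR-6520 and bta-miR-7859 had separate ranges in the other direction at low counts. Neither had more than 2 counts in any grain-fed library. Both thus passed the limit for detection only through the deeper grass-fed libraries, the group where they were higher. The precursor of bta-miR-6520 overlaps EP400, which encodes a chromatin remodelling ATPase, and the miRNA had 13, 15 and 12 counts in grass-fed replicates 1, 2 and 3 against 1, 1 and 0 in the grain-fed ones. Its scaled levels were 2.74, 3.53 and 3.15 CPM against 0.974, 1.42 and 0 CPM. All grain-fed values are below the level that a count of 0 allows in those libraries. The 40 grass-fed and 2 grain-fed counts give a scaled ratio of 3.59, with a 95% counting interval of 0.930 to 30.6. The fitted log2 fold change was 1.79 (standard error 0.80, 95% interval 0.08 to 3.50, FDR = 0.178, edgeR). This fitted interval leaves out no change, while the counting interval includes it. The precursor of bta-miR-7859 overlaps PTGR2, a prostaglandin reductase gene, and the miRNA had 20, 36 and 17 counts in grass-fed against 2, 2 and 1 in grain-fed replicates. These scaled to 4.21, 8.48 and 4.46 CPM and to 1.95, 2.83 and 1.77 CPM, with a fitted log2 difference of 1.37 (standard error 0.66, 95% interval -0.04 to 2.78, FDR = 0.202, edgeR). Here too all grain-fed values are below the level that a count of 0 allows, and the 73 grass-fed and 5 grain-fed counts give a scaled ratio of 2.62, with a 95% counting interval of 1.07 to 8.31. Both passed FDR 0.1 with upper-quartile normalization (FDR = 0.0842 for bta-miR-6520 and 0.0860 for bta-miR-7859, edgeR). bta-miR-6520 also passed among miRNAs with at least 10 counts in 3 libraries (FDR = 0.0984, edgeR). It met that filter only through the 3 grass-fed libraries, the group where it was higher, so this pass adds no separate support.

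bta-miR-3432a and bta-miR-3431 were the most abundant, ranking 111 and 114 among all detected miRNAs. bta-miR-3432a has 2 precursors, overlapping TP53BP1, a DNA damage response gene, and HIP1, which encodes a clathrin adaptor. The precursor rows held 2274 and 2363 counts over all libraries and differed by 3 to 35 in any library, and reads that fit both precursors are counted in each, so the locus of origin cannot be told. Its level was 159, 172 and 132 CPM in grass-fed replicates 1, 2 and 3 against 152, 177 and 170 CPM in the grain-fed ones. The ranges overlapped, and the log2 fold change of -0.11 (standard error 0.22, 95% interval -0.59 to 0.38, FDR = 0.819, edgeR) turned to 0.07 with upper-quartile normalization. The related entry bta-miR-3432b, whose precursor overlaps no other gene, was far scarcer, with 21 to 51 counts in grass-fed and 5 to 12 in grain-fed libraries. Its level was 8.37 ± 3.32 and 10.2 ± 1.42 CPM (SD, n = 3 each), which gave -0.31 on the log2 scale (standard error 0.45, FDR = 0.753, edgeR).

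bta-miR-3431 lies within GABRE, the gene of the epsilon subunit of the GABA type A receptor, with bta-miR-224 and bta-miR-452 within 10 kb. It varied more between animals than bta-miR-3432a, with 105, 220 and 159 CPM in grass-fed replicates 1, 2 and 3 against 158, 82.1 and 165 CPM in the grain-fed ones. The log2 fold change was 0.25 (standard error 0.33, 95% interval -0.46 to 0.97, FDR = 0.722, edgeR) and turned to -0.21 with total counts as the only scaling. bta-miR-224 had 86.5, 188 and 113 CPM in grass-fed replicates 1, 2 and 3 against 103, 48.1 and 67.4 CPM in the grain-fed ones, so that for both miRNAs grass-fed replicate 2 was the highest of the 6 libraries and grain-fed replicate 2 the lowest. bta-miR-452 was lower, at 28.7 ± 4.53 and 19.8 ± 1.53 CPM (SD, n = 3 each), and did not share this order, since grass-fed replicate 2 was the lowest of its group. Neither neighbour passed FDR 0.1 (log2 fold change 0.79, FDR = 0.186 for bta-miR-224 and 0.52, FDR = 0.307 for bta-miR-452, edgeR).

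bta-mir-6119, which overlaps the ribosomal protein gene RPL39, was the only precursor of this range with both arms detected. The 5p arm dominated, with 141, 129 and 98 counts in grass-fed replicates 1, 2 and 3 against 33, 11 and 16 in the grain-fed ones. The 3p arm had 27, 17 and 24 counts and 11, 4 and 1 counts in the same order. The 5p share was 84.2% ± 4.02 in grass-fed and 80.8% ± 11.5 in grain-fed libraries (SD, n = 3 each), with overlapping ranges. Neither arm passed the test, with log2 fold changes of 0.15 (standard error 0.31) for bta-miR-6119-5p (FDR = 0.819, edgeR), which turned to -0.27 with total counts as the only scaling, and -0.36 (standard error 0.52) for bta-miR-6119-3p (FDR = 0.753, edgeR). bta-mir-6120, within the casein kinase gene CSNK1G2, showed the opposite preference, with 75, 53 and 50 counts of the 3p arm in grass-fed replicates and 24, 11 and 4 in grain-fed ones, against 1 count of the 5p arm over all libraries. bta-miR-6120-3p was at 13.8 ± 1.75 CPM in grass-fed and 15.3 ± 8.14 CPM (SD, n = 3 each) in grain-fed liver, which gave -0.26 on the log2 scale (standard error 0.38, FDR = 0.753, edgeR). Its grain-fed libraries lay on both sides of the grass-fed ones, at 23.4, 15.6 and 7.10 CPM.

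None of the remaining miRNAs above 8 CPM passed FDR 0.1. bta-miR-6529a, in the glycogen synthase kinase gene GSK3B, had 23.4, 26.6 and 19.4 CPM in grass-fed replicates 1, 2 and 3 against 18.5, 18.4 and 28.4 CPM in the grain-fed ones. The fit gave 0.13 on the log2 scale (standard error 0.32, FDR = 0.845, edgeR) and -0.29 with total counts as the only scaling. bta-miR-3613a had 20.4, 23.1 and 27.0 CPM against 17.5, 12.7 and 21.3 CPM, with a fitted log2 difference of 0.46 (standard error 0.33, FDR = 0.422, edgeR). bta-miR-6517, in the dynein assembly gene DNAAF2, had 8.21, 11.5 and 8.14 CPM against 3.90, 9.91 and 7.10 CPM, with a fitted log2 difference of 0.49 (standard error 0.47, FDR = 0.576, edgeR). In each of these the groups overlapped. The 95% interval lay within -1 to 1 on the log2 scale for 4 miRNAs of the range, bta-miR-3432a, bta-miR-3431, bta-miR-6119-5p and bta-miR-6529a alone, and for the others it reached past -1 or 1.

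The other 12 detected miRNAs, from bta-miR-6523a at 3.73 CPM down to bta-miR-7857-3p at 0.429 CPM in the mean of both groups, had standard errors between 0.69 and 1.58 and FDR of 0.636 or more in edgeR. bta-miR-7862, for example, had 3, 10 and 3 counts in grass-fed replicates 1, 2 and 3 against 1, 0 and 3 in the grain-fed ones. bta-miR-4286, listed at a pair of precursors, had 10, 5 and 4 against 2, 1 and 0 counts. bta-miR-6536 had identical counts at both of its precursors, which overlap each other within REV3L, a DNA polymerase gene.

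Most of these miRNAs overlap other genes in position, with the strand not taken into account. By name, 71 of the 78 precursors of this range were placed on a chromosome by RefSeq (ARS-UCD2.0, a later assembly than that of the files), 3 were unplaced and 4 were not matched. Of the 71 mature miRNAs with a placed precursor, 57 overlapped a protein-coding gene and 20 of these were detected (35.1%), 4 overlapped only a lncRNA gene and 2 of these were detected, and 10 overlapped neither and 3 of these were detected. Over all placed miRNAs of the range the share detected was 35.2%.

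In 7 cases the precursor overlaps that of an older miRNA, and none of the 7 was detected. bta-miR-3120 overlaps bta-miR-214 inside DNM3, a pair known to lie on opposite strands, and bta-miR-3065 overlaps bta-miR-338 in the same manner inside AATK. bta-miR-3120 and bta-miR-3065 had 1 count each over all libraries, while bta-miR-214 stood at 115 ± 18.7 and 113 ± 5.86 CPM in grass-fed and grain-fed liver (SD, n = 3 each) and bta-miR-338 at 6.56 CPM in the mean of both groups. The other 5 had no count. Among them bta-miR-3600 overlaps bta-miR-22, whose 3p arm was at 19251 ± 5747 and 17763 ± 3073 CPM (SD, n = 3 each). bta-miR-3596 overlaps bta-let-7b, at 4712 ± 850 and 5072 ± 736 CPM (SD, n = 3 each). bta-miR-3604 overlaps precursors of the bta-miR-199 group, of which bta-miR-199a-3p reached 3924 ± 646 and 2550 ± 211 CPM (SD, n = 3 each). bta-miR-3578 and bta-miR-3601 overlap bta-miR-382, at 14.0 CPM in the mean of both groups, and bta-miR-542-5p, at 0.393 CPM, which was itself not detected. With no count in the deep grass-fed libraries, each of the 5 was limited there to at most 0.632 to 0.787 CPM.

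In 3 lettered pairs only the a entry had counts. bta-miR-3613b, bta-miR-6523b and bta-miR-6529b overlap the precursors of bta-miR-3613a, bta-miR-6523a and bta-miR-6529a, and each b entry had 0 counts in all 6 libraries while its partner had 337, 55 and 346 counts in all.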

How the data were processed

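The authors deposited raw whole-number counts per mature miRNA and precursor, and these were used. Per the methods of the paper, the authors removed adapters, low-quality reads and reads shorter than 17 or longer than 25 nt, mapped the rest to ARS-UCD1.2 and counted miRBase 22.0 miRNAs with miRDeep2. The submitters' processing notes name FastQC 0.11.5 and Trimmomatic 0.36. No aligner settings and no version of miRDeep2 were given in the sources used here. Deposited CPM values, which the authors divided by the total over all pairs, were not used. Each mature miRNA was given its largest count over precursors, since reads that fit several precursors are repeated.

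miRNAs that exceeded 2 counts in 2 or more libraries were tested with edgeR 4.0.16 in R 4.3.3 (TMM scaling, quasi-likelihood test, two-sided, Benjamini-Hochberg adjustment over all 456, FDR 0.1). Standard errors were obtained from each log2 fold change and the square root of its F statistic. For 3 libraries against 3 the smallest exact permutation p is 0.1. In counts simulated for these 456 miRNAs, 82.4% of 200 changes of 2 on the log2 scale were found and 5.13% of calls were unchanged miRNAs (10 draws). The share found was not computed for the number range described here, whose median level of 3.73 CPM lies below the 15.6 CPM of all detected miRNAs. Alternatives were other scalings and filters, DESeq2 1.42.0, summed precursor rows, FDR 0.05, the replicate block and each library left out. Replicates of a group differed by more than sampling noise.

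Named miRNAs were those passing FDR 0.1, those with separate CPM ranges, the 10 most abundant, and precursors with both arms detected. bta-miR-3533 and bta-miR-6524, which the study lists as changed, were also named. So were miRNAs with counts identical to another (none was detected). The rule's part on shared sequence was not applied. Others were named after their values were seen: bta-miR-6523a, bta-miR-7862, bta-miR-4286, bta-miR-6536, bta-miR-7857-3p and those with overlapping precursors. The rule for the number range uses names alone, but the range itself, the marker lists and the tests were chosen with earlier results of these data known. Mature sequences and strands were not used here. Overlap with genes rests on RefSeq coordinates of ARS-UCD2.0, which are not printed.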

Additional observations from a re-analysis of the deposited data

How the results depend on the processing

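The single call of bta-miR-3533 held at FDR 0.1 in every alternative but 2, without grain-fed replicate 2 and with only grain-fed replicate 3 kept, in each of which 0 of these miRNAs passed (bta-miR-3533 lay between -2.88 and -1.96 over all of them). The number passing was 3 of 25 with upper-quartile normalization, beside 124 of all 456 tested miRNAs. With at least 10 counts in 3 libraries it was 2 of 13, beside 86 of all 317 tested miRNAs. With each library left out the number passing in this range was 0 to 1. Over all tested miRNAs it was 87, 49 to 86 with each library left out (49 without grain-fed replicate 2) and 28 with only grain-fed replicate 3 kept, and its split of higher to lower was 9 to 65 with total counts alone and 82 to 42 with upper-quartile normalization. Deviations from the group means correlated at -0.05, -0.20 and -0.01 for same-numbered libraries and at -0.21 to 0.23 for the other pairs. No pairing by replicate number was seen, but 3 libraries per group cannot exclude it. With the replicate block 82 of all miRNAs and 1 of this range passed.

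Detected miRNAs numbered 40 with at least 1 count in 2 libraries and 14 with at least 10 counts, and 20 to 25 with each library left out. At the depth of the smallest library the number above 2 counts was 9.93, 8.97 and 9.78 in the grass-fed libraries. With precursor rows summed, the share of counts was 0.0468% in grass-fed and 0.0616% in grain-fed libraries.

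Among the named miRNAs, signs turned only for those that did not pass. With total counts alone the log2 fold change became -0.21 for bta-miR-3431, -0.27 for bta-miR-6119-5p and -0.29 for bta-miR-6529a. With upper-quartile normalization it became 0.072 for bta-miR-3432a, and with at least 10 counts in 3 libraries -0.0059 for bta-miR-6529a. With each library left out in turn, values ran from -0.10 to 0.41 for bta-miR-3431, -0.72 to 0.39 for bta-miR-6119-3p, -0.18 to 0.36 for bta-miR-6119-5p, -0.56 to 0.19 for bta-miR-6120-3p and -0.046 to 0.29 for bta-miR-6529a. With only grain-fed replicate 3 kept the values were -0.12 for bta-miR-3431, 1.51 for bta-miR-6119-3p, -0.051 for bta-miR-6119-5p, 0.90 for bta-miR-6120-3p and -0.36 for bta-miR-6529a. The cause of these turns was not tested. Keeping only grain-fed replicate 3 and the older form of the edgeR fit were chosen after seeing the data. In the former, the lone library is assumed to vary like the others. Depth limits the 18 detected miRNAs below 10 CPM most, since 15 of them had under 3 counts in a grain-fed library.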
